A study of Mus musculus with 48 samples.

Results

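Arntl (also called Bmal1), Clock, Npas2, Nfil3 and Cry1, 5 genes of the circadian clock that are grouped here by the phase of Arntl, were examined in the liver and colon of 12-week-old mice. Every probe whose accession mapped to one of these symbols was used, which gave 9 of the 41174 probes on the array and 5 of the 18434 genes that could be named. Clock had 3 probes, Nfil3 and Cry1 had 2 each, and Arntl and Npas2 had 1 each. The group was put together with results of the liver comparisons HH vs. LH and HH vs. HL already known, so the diet differences of these genes in the liver are a description with no test.

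The mice were C57/BL6 offspring of dams fed diet H, sufficient in selenium and folate, or diet L, deficient in both, as the labels have it; the study's methods describe H as supplemented and the lack in L as marginal. In a group name the dam's diet comes first and that of the weaned offspring follows: HH (H then H), HL (H then L), LH (L then H) and LL (L then L). Both diets were high-fat diets, and all mice were fasted and then re-fed before tissue collection, per the study's methods. The time of day at which the tissues were taken, and which mice shared a dam, are not given in the sources used here. RNA of each mouse, labelled with Cy3, was hybridised on a 2-colour array against a common reference RNA labelled with Cy5, and each level below is the log2 ratio of mouse over reference. A level of 0 therefore means as much signal as in the reference after normalization, and levels of different probes cannot be set against each other.

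There were 6 arrays for each diet in each tissue, and 1 HH mouse had 2 liver arrays, which were averaged, leaving 5 HH mice and 6 of each other diet in the liver and 6 of each diet in the colon. Each slide carried 1 array of each diet. Between 55.1 and 66.0% of the probes on a liver array, and between 66.8 and 73.7% on a colon array, were well above background in the mouse channel. The mean level of 4 hepatocyte genes lay between 1.14 and 1.84 in the liver mice and between -4.56 and -4.06 in the colon mice, and that of 6 genes of the colon epithelium lay between 0.46 and 1.17 in the colon and between -4.08 and -3.35 in the liver. The study describes male offspring, but Xist, the transcript of the inactive X chromosome, was over 2 log2 units above the tissue median on 2 liver arrays (HL replicate 2 and LL replicate 6) and on 6 colon arrays (HH replicates 1 and 5, HL replicate 5, and LL replicates 1, 3 and 5). The labels give liver and colon arrays different animal numbers and do not say whether the same mice gave both, so the tissues were never paired. The study's methods describe 6 offspring per diet group and the removal of both tissues, so some or all mice may have given both. Tissue pieces were measured whole, so that fewer cells of a type and less RNA per cell cannot be told apart.

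The circadian clock is a loop of transcription and repression that runs in nearly every cell. ARNTL pairs with CLOCK, or with its relative NPAS2, and the pair binds E-box sequences and switches on the Per and Cry genes, the nuclear receptor genes Nr1d1 and Nr1d2 (REV-ERB alpha and beta) and the output factors Dbp, Tef and Hlf. PER and CRY proteins then repress the pair, and REV-ERB proteins repress Arntl, Clock, Npas2, Nfil3 and Cry1 through ROR/REV-ERB elements, so that these transcripts peak when Dbp and the REV-ERB transcripts are low. NFIL3 is a repressor that competes with DBP, TEF and HLF for D-box sequences. In the liver the phase of the clock is strongly set by the time of feeding.

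The promoters are shown because the groups of clock genes are told apart by such elements. In the RefSeq start sites on GRCm38.p6, 8 starts were listed for the 5 genes, and the 250 bases before each start were searched on both strands for 7 sequences. The E-box CACGTG was found before the start of Cry1, from base 60 to base 55 upstream, and is present in 6.02% of all 32851 listed promoters. The E-prime box CACGTT was also found there, on the opposite strand, and is present in 3.85% of promoters. The ROR/REV-ERB core AGGTCA, present in 14% of promoters, was found on the opposite strand before Nfil3, where it lies inside the longer GTAGGTCA (0.517% of promoters), and before the third listed start of Clock. No match to these sequences, to GTAGGTTA (0.271%) or to the D-box forms TTATGTAA (0.819%) and TTACGTAA (0.113%) was found in the window of Arntl, Npas2 or the remaining starts of Clock, which says only that these letters are not in that window. The window of the second listed start of Arntl ends in GTAGGTT, which is GTAGGTTA without its last letter. The search stopped at that start, so it cannot tell whether the sequence is completed beyond it. Each line gives 30 bases on the strand of the gene, 5′ to 3′, with the match in capitals, as it reads on that strand.
Cry1 E-box, chr10:85185097-85185126, minus strand: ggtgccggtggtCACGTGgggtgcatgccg
Cry1 E-prime box, chr10:85185116-85185145, minus strand: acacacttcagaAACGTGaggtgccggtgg
Nfil3 GTAGGTCA, chr13:52981040-52981069, minus strand: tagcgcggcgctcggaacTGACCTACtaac
Clock AGGTCA, chr5:76303604-76303633, minus strand: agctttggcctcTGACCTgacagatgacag

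Arntl (chromosome 7, 113178471 to 113314126, GRCm38.p6) encodes the obligate partner of the activating pair. Its 1 probe was well above background on all 24 arrays of each tissue. In the liver the 5 HH mice had levels of -0.32, -1.17, 0.30, -0.04 and -0.36, a mean of -0.32 ± 0.54 (SD, n = 5). The 6 LH mice had levels of -0.09, 0.25, -1.55, -1.61, -1.62 and -1.36, a mean of -1.0 ± 0.85 (SD, n = 6). In LH, 4 mice thus lay below every HH mouse and 2 lay among the HH mice, 1 of them near the top of the whole tissue. The HL mice ranged from -1.72 to 0.03 with a median of -1.06 and a mean of -1.0 ± 0.65 (SD, n = 6). The LL mice ranged from -1.54 to 0.10 with a median of -0.80 and a mean of -0.75 ± 0.62 (SD, n = 6). The order of the liver means was HH, LL, LH and HL, and each step between neighbours was smaller than the SD of either group.

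Within a diet group Arntl was among the most variable transcripts of both tissues. From the lowest to the highest liver mouse it spanned 2.02 log2 units, 4.07-fold, and its SD within diet groups, 0.68, was at the 99.0th percentile of the probes above background on all liver arrays. In the colon it spanned 1.57 log2 units, 2.96-fold, and its SD within groups of 0.52 was at the 98.7th percentile. The widest gap between neighbouring mice was 0.26 in the liver and 0.23 in the colon, so that by Arntl alone the mice formed a continuous series. Dbp left a wider gap in the colon, where no mouse lay between 0.65 (LH replicate 4) and 1.24 (HL replicate 2). Whether the mice form separate clusters was not tested. Colon HH mice had levels of -0.80 to 0.23 with a median of -0.17, HL mice -1.33 to 0.13 with a median of -0.40, LH mice -1.34 to -0.10 with a median of -0.57, and LL mice -0.99 to 0.22 with a median of -0.74. All 4 colon groups overlapped.

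**Figure D1:**
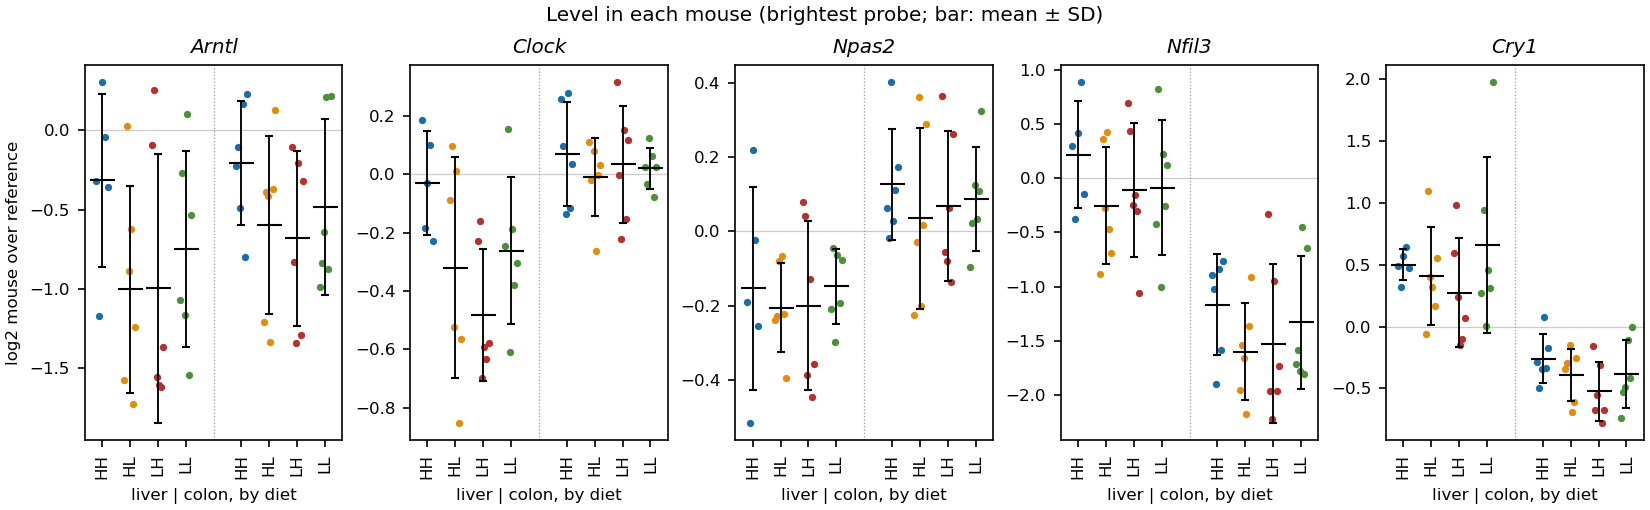
Level of the 5 genes in each mouse, as log2 mouse over reference on the y axis and diet group within liver (left) and colon (right) on the x axis; each point is 1 mouse, and the bars are the mean and SD of 5 or 6 mice. Groups overlap for every gene within a tissue, and the ranges of the tissues overlap for Nfil3, whose mean was higher in the liver, with levels of -1.06 to 0.88 against -2.22 to -0.33.

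Clock (chromosome 5, 76209868 to 76305603) encodes the usual partner of ARNTL. By its brightest probe the liver means were -0.03 ± 0.18 in HH (SD, n = 5), -0.26 ± 0.25 in LL, -0.32 ± 0.38 in HL and -0.48 ± 0.23 in LH (SD, n = 6 each). The HH mice lay between -0.23 and 0.19 and the LH mice between -0.70 and -0.16, and 5 of the 6 LH mice were below all HH mice, 1 of them only just. The step from HH to LL, 0.23, exceeded the smaller of their SDs, and the other steps did not. In the colon the range over all mice was narrow, from -0.26 to 0.31, and the 4 means lay between -0.01 and 0.07. The second probe followed the first across mice within groups, with r = 0.69 in the liver and 0.62 in the colon. The third probe was not well above background on any liver array and on only 9 of 24 colon arrays, and it enters only the counts over all 9 probes and the comparison of the tissues.

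Npas2 (chromosome 1, 39193702 to 39363240) encodes a relative of CLOCK that can take its place. Its probe was well above background on all 24 colon arrays but on only 3 of 24 liver arrays, 2 of HH and 1 of LH. Its liver levels ran from -0.52 to 0.22, with means between -0.21 in HL and -0.15 in LL. Levels in the colon ran from -0.22 to 0.40, with means between 0.04 in HL and 0.13 in HH. Each step between neighbouring diet means was smaller than the smaller SD in both tissues.

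Cry1 (chromosome 10, 85131700 to 85185054) encodes a repressor of the ARNTL pair whose transcript appears late in the cycle. In the liver HH mice had levels of 0.49, 0.32, 0.57, 0.65 and 0.47 (mean 0.50 ± 0.12, SD, n = 5), the group with the smallest spread for this gene. The LH mice ranged from -0.15 to 0.98 with a median of 0.16, the HL mice from -0.06 to 1.1 with a median of 0.36, and the LL mice from 0.00 to 1.97 with a median of 0.38. LL replicate 6, at 1.97 and 1 of the mice with high Xist, stood above every other liver mouse, and its level by the second Cry1 probe was -0.31. The probes of Cry1 did not follow each other across liver mice within groups (r = 0.16) and did so more closely in the colon (r = 0.61). Colon levels ran from -0.78 to 0.08, with means of -0.26 in HH, -0.38 in LL, -0.39 in HL and -0.52 in LH. Between the liver means only the step from LL (0.66) to HH exceeded the smaller SD, and no colon step did. That step rests on LL replicate 6: without it LL differed from HH by -0.10, which turns the order.

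Nfil3 (chromosome 13, 52967209 to 52982878) encodes the D-box repressor and, like Arntl, varied widely within diet groups. Its SD within diet groups was 0.57 in the liver and 0.58 in the colon, at percentiles 97.9 and 99.2 of the probes above background on all arrays of the tissue. The liver HH mice had levels of 0.30, -0.37, 0.41, 0.88 and -0.14, a mean of 0.22 ± 0.49 (SD, n = 5). The other liver means were -0.09 ± 0.62 in LL, -0.11 ± 0.62 in LH and -0.26 ± 0.54 in HL (SD, n = 6 each). Means in the colon were -1.17 ± 0.46 in HH, -1.33 ± 0.62 in LL, -1.53 ± 0.73 in LH and -1.60 ± 0.44 in HL (SD, n = 6 each). No step between neighbouring diet means exceeded the smaller SD in either tissue. Both Nfil3 probes gave the same picture, with r = 0.96 between them in the liver and 0.91 in the colon.

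The diet comparisons ask whether low selenium and folate in the diet of the dam, of the offspring or of both went with other levels of these genes. In the liver, Arntl was lower than in HH by 0.68 on the log2 scale in LH (difference -0.68, standard error 0.38) and by about as much in HL (-0.69, standard error 0.38), and the difference in LL was -0.43 (standard error 0.38). With slide as a block the differences were -0.42, -0.43 and -0.17 (22 mice, since the HH mouse on 2 slides then adds nothing). The study's own list for HH vs. LH gives Arntl and Dbp the opposite sign from the one found here; the signs here rest on the dyes given in the labels and on the hepatocyte genes above. Clock differed from HH by -0.45 in LH (standard error 0.16), by -0.29 in HL and by -0.23 in LL. Its second probe gave -0.22 in LH and -0.16 in HL. Nfil3 differed by -0.32 in LH, -0.47 in HL and -0.30 in LL (standard error 0.32 each), and by -0.09, -0.23 and -0.07 with slide as a block. By the brightest probe all 5 genes had a lower mean than HH in both LH and HL, and 3 of 5 in LL, where Cry1 was 0.16 and Npas2 0.01 above HH. These 2 signs did not hold: without LL replicate 6 Cry1 was at -0.10 and Npas2 at -0.01 in LL, and Npas2 ranged from -0.09 to 0.03 over the background, normalization, channel and deposited-table settings. In HL, Cry1 was at 0.01 without HL replicate 1, and the scanner's processed signals gave Npas2 -0.35. Without HH replicate 3, the averaged mouse, Npas2 was 0.05 above HH in LH and 0.04 in HL, and without LH replicate 5 it was at 0.003 in LH. The second probe of Cry1 had the other sign, at 0.23 in LH and 0.22 in HL. Npas2 lay 0.09 above HH in LH and 0.08 in HL with slide as a block. These comparisons share the HH mice and chose the genes, so that the common sign was fixed in part by the choice.

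In the same liver comparisons 0 of 41171 probes passed a fold change over 1.5 with FDR under 0.05 in limma (0% in each of the 6 comparisons of diets), and 4934 probes in LH vs. HH and 1804 in HL vs. HH had an unadjusted p under 0.05. A fit on all 8 groups of both tissues called 106 probes summed over the 6 liver comparisons, and a fit on only the groups compared called 18. The study, at the same thresholds, reports called probes for HH against each of LH, HL and LL, most of them for LH. Its list for HH vs. LH holds Arntl and Dbp. Here the background was corrected and the 2 liver arrays of 1 HH mouse were averaged. Why the counts differ was not tested. None of the 9 probes separated the mice of any diet from those of another without overlap, in any of the 12 comparisons in both tissues. The share of all probes that did so was, in the liver, 1.54% for LH vs. HH, 0.202% for HL vs. HH, 0.333% for LL vs. HH, 0.109% for LL vs. HL, 0.26% for LL vs. LH and 0.0656% for LH vs. HL. In the colon it was 0.177, 0.0753, 0.0364, 0.0656, 0.124 and 0.102% in the same order, so that a count of 0 among 9 probes is no result about these genes.

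The clock genes of the other phase had the opposite sign in these liver comparisons. Of 28 further genes of the clock pathway, 21 had a higher mean in LH than in HH and 22 had a higher mean in HL, with medians of 0.35 and 0.24 against -0.01 for all probes in each. Dbp, an output factor that ARNTL drives, differed by 1.45 in LH and 1.54 in HL (standard error 0.65 each), while the study's list for HH vs. LH gives it the opposite sign, as said above. Ciart, a repressor of the ARNTL pair, differed by 1.57 and 1.65 (standard error 0.55 each), and Tef by 1.09 and 0.97 (standard error 0.36 each). Per1 differed by 0.80 and 0.78, and Nr1d2 by 0.40 and 0.67. The study had listed Dbp, Per1 and Nr1d2 for these liver comparisons before the genes were chosen. Their sign here was thus known at the choice, and these liver differences are a description with no test. Of 13 genes that respond to fasting and feeding and were found on the array, 8 had a higher and 5 a lower mean in LH than in HH, with a median of 0.13, and 7 had a higher and 6 a lower mean in HL, with a median of 0.01. Igfbp1, an insulin-repressed gene of the fasted liver, differed by 0.72 in LH (standard error 0.35). G6pc, which releases glucose, and Ppargc1a, a coactivator of fasting genes, had the other sign, at -0.26 and -0.22 (standard error 0.21 each).

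In the colon the same genes were tested, since the liver comparisons that chose the group hold no colon samples. If the same mice gave both tissues, which the labels do not settle, the colon values are not independent of that choice. Arntl differed from HH by -0.48 in LH (95% interval -1.04 to 0.09), by -0.39 in HL (-0.96 to 0.18) and by -0.28 in LL (-0.85 to 0.29), and limma's adjusted p was 1.00 for each. Nfil3 differed by -0.36, -0.43 and -0.16 in the same order. Cry1 differed by -0.27 in LH, with an unadjusted p of 0.0477 and an adjusted p of 1.00 in limma, and this was the 1 unadjusted p under 0.05 among the 5 genes in the comparisons with HH. Clock and Npas2 differed from HH by between -0.09 and -0.04. With the scanner's processed signals Npas2 was at -0.21 in LH and -0.25 in HL and Cry1 at -0.60 in LH (none passed in limma). All 15 of these differences were below 0, but they share the HH mice, and the genes covary between mice. Without the 6 mice whose Xist was high the LL differences of Nfil3 and Cry1 were above 0, at 0.24 and 0.02, and that of Arntl in LH was -0.63. No member probe and none of 41173 probes was called in any of the 6 colon comparisons (0%), and 1335 probes had an unadjusted p under 0.05 in LH vs. HH. In the dam by offspring interaction of the colon the lowest adjusted p of a member probe was 1.00. The intervals still allow a difference of Arntl as low as -1.04 in LH.

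**Figure D2:**
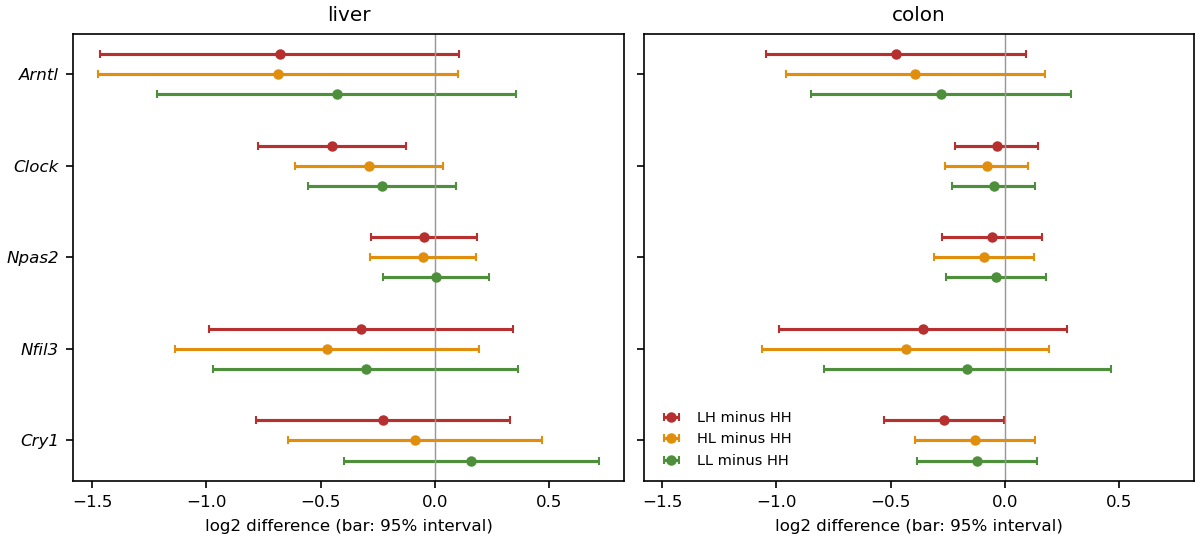
Difference of LH, HL and LL from HH in log2 units (x axis) for each gene (y axis) in liver (left) and colon (right), by the brightest probe; bars are 95% intervals of the limma fit. The intervals of Arntl reach from -1.47 to 0.11 for LH in the liver and from -1.04 to 0.09 in the colon, and the liver values were used in choosing the genes.

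Between the tissues the genes differed in direction. The repressor genes Nfil3 and Cry1 were higher in the liver than in the colon, and the activators Arntl, Clock and Npas2 were not. Nfil3 was 1.34 log2 units higher in the liver (standard error 0.21, 2.52-fold, adjusted p = 2.61e-07, limma with slide as a random block), and its second probe gave 1.32. Cry1 was 0.86 higher (standard error 0.14, 1.81-fold, adjusted p = 4.77e-07), and its second probe gave 0.67. Thus 4 of 9 member probes were called higher in the liver, against 14.6% of all 41171 probes, and 0 of 9 were called higher in the colon, against 15.7% (30.3% in either direction). Clock, at -0.31 (adjusted p = 0.000418), and Npas2, at -0.25 (adjusted p = 0.00211), were lower in the liver with a fold change under 1.5, while the second Clock probe did not differ by more than its interval, -0.16 to 0.16. The Npas2 value rests on liver signals that were mostly not well above background. Arntl differed by -0.26, with an interval from -0.71 to 0.18 (adjusted p = 0.309). Without the mice whose Xist was high 4 member probes were again called, with Nfil3 at 1.20, Cry1 at 0.70 and Arntl at -0.40.

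With median centring in place of loess the difference of Arntl was -0.88 (adjusted p = 0.00132) and that of Npas2 was 0.09 (adjusted p = 0.275), so that neither the size for Arntl nor the sign for Npas2 was independent of the scaling. Clock was then at -0.89, Nfil3 at 0.83 and Cry1 at 0.51. With the scanner's processed signals Npas2 was at -1.25 (adjusted p = 4.69e-06 in limma) and Cry1 at 1.52. The output factor Hlf, by comparison, was 2.83 log2 units higher in the liver and Tef 1.00 higher, while Dbp differed by 0.50 with an interval from -0.26 to 1.26.

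**Figure D3:**
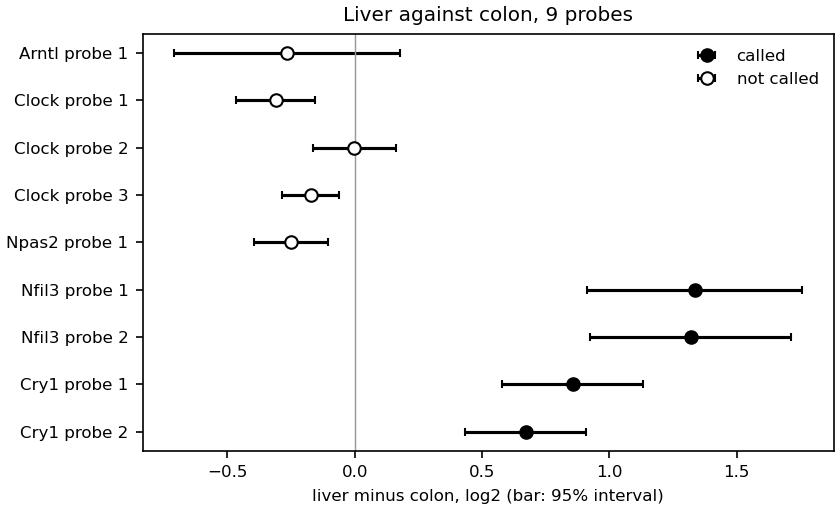
Liver minus colon in log2 units (x axis) for the 9 probes (y axis), with 95% intervals; filled points passed a fold change of 1.5 and FDR 0.05. The 4 probes of Nfil3 and Cry1 lie at 0.67 to 1.34, and the 5 other probes lie at or below 0, of which Npas2 moves to 0.09 with median centring.

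Across single mice of the same diet the 5 genes, each by its brightest probe, varied together. Values were centred on the mean of their diet group, which takes out the comparisons that chose the genes, and 40 relations were tested by permuting mice within groups: the 10 pairs of members and Arntl with 10 other clock genes, in each tissue. All 10 pairs of members had a positive r in both tissues. In the liver 9 of the 10, and in the colon 8 of the 10, had a Benjamini-Hochberg adjusted permutation p under 0.05. Liver values of r ran from 0.39 to 0.76 (n = 23), and colon values from 0.27 to 0.88 (n = 24). The liver relations of Cry1 hold for its brightest probe only. Its second probe did not follow the first there (r = 0.16), and relations by the second probe were not tested. Pairs that did not pass were Clock with Cry1 in the liver (r = 0.42, adjusted permutation p = 0.0833) and, in the colon, Clock with Npas2 (r = 0.27, adjusted permutation p = 0.259) and Npas2 with Nfil3 (r = 0.40, adjusted permutation p = 0.0842). Without the 2 mice farthest from the median of Clock, the colon r of Clock with Npas2 was -0.03, and every other pair in both tissues kept a positive r in the same check. With median centring in place of loess, 5 of the 10 liver pairs passed. Without the mice whose Xist was high, 10 liver and 7 colon pairs passed.

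Arntl and Nfil3 had the highest Pearson r of the 10 pairs in each tissue after centring on diet group. In the colon r was 0.88 and Spearman's rho 0.88, with an adjusted permutation p of 5e-05, the raw p of 1e-05 being the smallest that 100000 permutations can give. Without the 2 mice farthest from the median of Arntl r was 0.86, and with values centred on slide as well as group it was 0.93. In the liver r was 0.76, rho 0.75 and the adjusted permutation p 0.0004, with 0.77 without the 2 farthest mice and 0.72 after centring on slide (n = 22, since the HH mouse on 2 slides drops out). Other liver pairs were higher by other measures: Npas2 with Nfil3 had a rho of 0.78, and after centring on slide Nfil3 with Cry1 had an r of 0.85. The mice at the ends show the pattern: colon HH replicate 6 had the highest Arntl, 0.23, with Nfil3 at -0.77, and colon LH replicate 3 had the lowest Arntl, -1.34, with the lowest Nfil3, -2.22.

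Clock had an r with Arntl of 0.69 in the liver and 0.62 in the colon (adjusted permutation p = 0.00122 and 0.00367). Npas2 gave 0.72 and 0.60 (0.000457 and 0.0102 as adjusted permutation p), and Cry1, by its brightest probe, 0.65 and 0.69 (0.00253 and 0.00183). For these 3 genes r kept its sign without the 2 farthest mice and after centring on slide, with values between 0.49 and 0.78. The liver values of Npas2 come from a probe near background there, and its r with Arntl did not pass in the liver with median centring (0.24, adjusted permutation p = 0.397) or in the colon with Cy3 alone (0.47, adjusted permutation p = 0.0507).

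The genes that ARNTL drives ran the other way. In the colon Dbp had an r of -0.92 with Arntl, Hlf -0.92, Ciart -0.89, Tef -0.89 and Nr1d2 -0.86, each with an adjusted permutation p of 5e-05. Per1 and Nr1d1 followed at -0.80 and -0.77 (adjusted permutation p = 8e-05 each), and Per2 at -0.51 (0.0161 as adjusted permutation p). Per2 did not pass with median centring (-0.26) or without the mice whose Xist was high (-0.40, adjusted permutation p = 0.124), where Dbp was at -0.91. Per3 and Bhlhe41, at -0.34 and -0.36, did not pass (adjusted permutation p = 0.144 and 0.11). In the colon mouse with the highest Arntl, Dbp was -0.37, and in the mouse with the lowest Arntl it was 2.05.

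In the liver 6 of the 10 passed: Tef (r = -0.81), Dbp (-0.79), Nr1d2 (-0.75), Ciart (-0.71), Per1 (-0.69) and Per3 (-0.52), with adjusted permutation p from 5e-05 to 0.0261. Dbp was 2.62 in HL replicate 5, the liver mouse with the lowest Arntl, and -1.04 in the averaged HH mouse, which had the highest. LL replicate 2 stood off this line, with Dbp at -0.76, Arntl at -0.27 and Nfil3 at 0.82. Hlf did not pass in the liver (r = -0.02, adjusted permutation p = 0.93), nor did Nr1d1 (-0.13, adjusted permutation p = 0.586), Per2 (-0.29, adjusted permutation p = 0.231) or Bhlhe41 (-0.04, adjusted permutation p = 0.879). Per3 and Bhlhe41 were well above background on only 14 and 8 of 24 liver arrays. Per3 did not pass after centring on slide (r = -0.31), without the repair of the local background (-0.44, adjusted permutation p = 0.105), with median centring (-0.45) or with Cy3 alone (-0.48). Liver Hlf lay between 1.49 and 2.41 in every mouse except the averaged HH mouse, at 0.43. Whether the r of Hlf or Nr1d1 differs between the tissues was not tested. No Cy3 spot of the brightest probe of the 5 members or of Dbp, Tef, Hlf, Nr1d2 and Ciart was saturated on any of the 48 arrays.

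**Figure D4:**
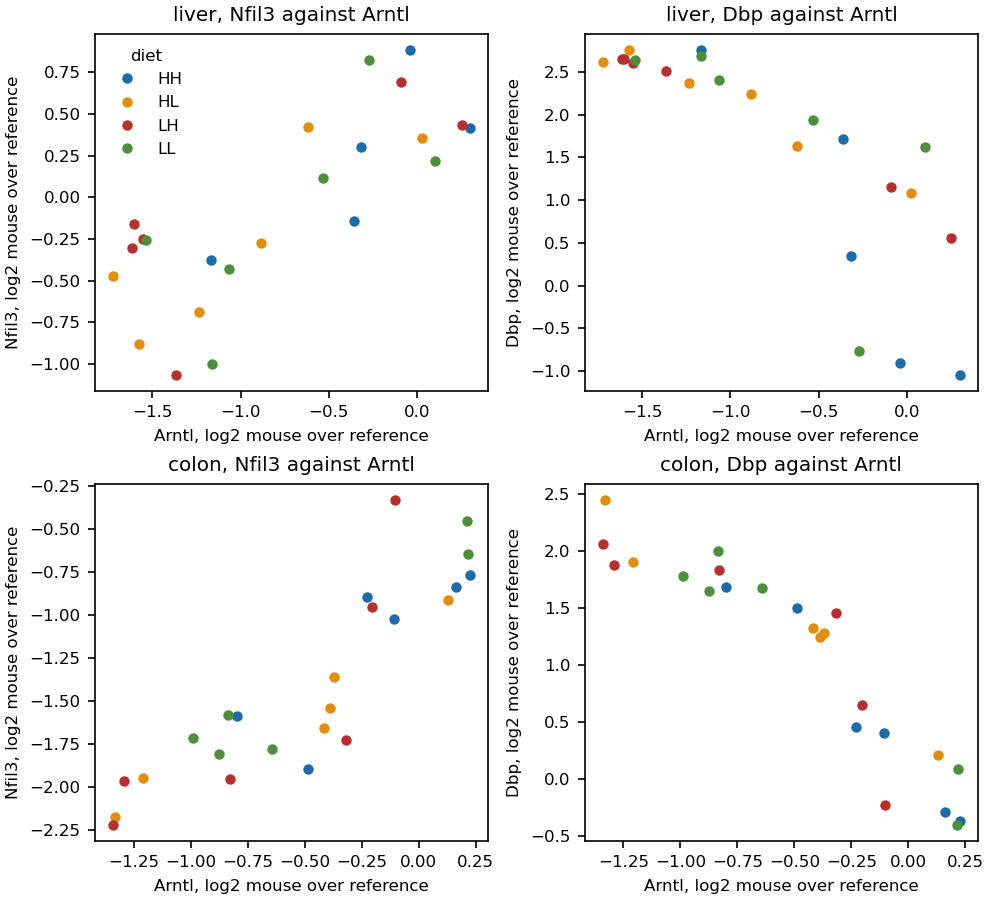
Nfil3 (left) and Dbp (right) against Arntl in liver (top) and colon (bottom), all as log2 mouse over reference; each point is 1 mouse, coloured by diet. Nfil3 is higher and Dbp lower in mice with more Arntl, with group-centred r of 0.76 and -0.79 in the liver and 0.88 and -0.92 in the colon, and mice of all 4 diets lie along the same bands.

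**Figure D5:**
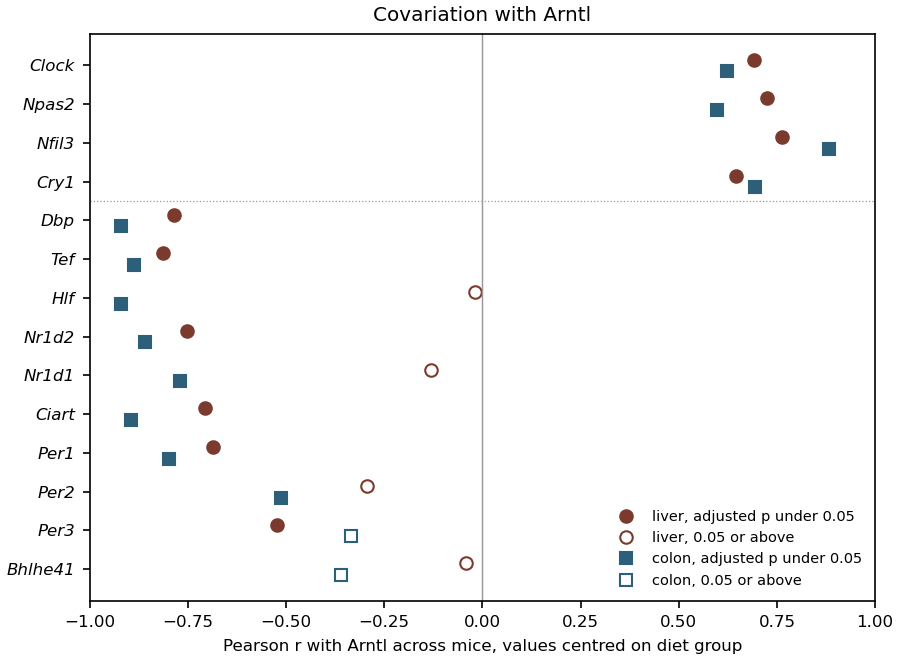
Pearson r with Arntl across mice, after centring on diet group (x axis), for the 4 other members above the dotted line and 10 other clock genes below it (y axis); circles are liver (23 mice), squares are colon (24 mice), and filled symbols have an adjusted permutation p under 0.05. All 4 members lie to the right of 0 in both tissues and the 10 other clock genes to its left. Liver Hlf, Nr1d1 and Bhlhe41, at -0.13 to -0.02, change sign after centring on slide and also without the 2 mice farthest from the median of Arntl.

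The mean levels of marker genes of 7 cell types moved little with Arntl within groups. Their r with Arntl lay between -0.26 and 0.26 over hepatocytes, colon epithelium, smooth muscle, immune cells, red cells, pancreatic acinar cells and fat cells in both tissues. Single mice did differ in them: 1 HL liver had a mean level of 3 acinar genes of 1.48 where HH, LH and LL livers lay between -2.46 and -1.70, and 1 LH liver had a mean level of 3 fat cell genes of 1.66 where HH, HL and LL livers lay between -1.40 and -0.94. Colon samples ranged from -0.87 to 3.18 in the fat cell genes. By single marker genes r with Arntl went further than by the means, from -0.39 (Actg2 in the colon) to 0.50 (Actg2 in the liver), with no test. Markers of 1 cell type could also oppose each other, as Cdx2 (-0.39) and Muc2 (0.26) did in the colon.

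Among all genes above background on every array of a tissue, those most like Arntl across mice were listed by r with no test. In the colon, over 14303 genes, Nfil3 ranked first, followed by Rasl11a (0.82), Ahsa1 (0.81) and Cldn8 (0.79), and Cry1, Clock and Npas2 ranked 20, 45 and 66. The lowest were Hlf, Dbp, Ciart, Tef, Sphk1 (-0.86), Nr1d2, Lefty1 (-0.84) and Coq10b (-0.84), 5 of them clock genes. In the liver, over 12333 genes, among the highest were Ppp1r3c (0.90), which targets protein phosphatase 1 to glycogen, Tubb2a (0.88) and Asap2 (0.87), with Dnmt3b, a DNA methyltransferase, at 0.85. Nfil3, Clock and Cry1 ranked 28, 53 and 86 there, and Npas2 was not ranked. The lowest were Narf (-0.91), Coq10b (-0.90), Ngef (-0.86), Ccno (-0.86), Klf13 (-0.85), Tef, Ipmk and Pcsk4. Coq10b and Tef were among the lowest 8 in both tissues, and no gene was among the highest 8 in both.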

How the data were processed

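RNA of liver and colon was hybridised on 2-colour Agilent arrays, with 24 arrays for each tissue. The deposited scanner files give Cy3 and Cy5 intensities per spot from Feature Extraction 10.10.1.1 (per the file headers), and the deposited table, made by the authors with limma in R 3.0.2, holds log2 ratios of reference over mouse after loess. Here median intensities were background corrected with normexp (offset 50) after a local background brighter than its spot was replaced by the median background of the array, loess normalized, turned to mouse over reference, and averaged by probe; flagged outlier spots were left out. The ratios of the deposited table correlated with loess of the uncorrected intensities at 0.9997 or more on every array. Precision is limited by how many arrays there are. Of 41174 probes, 27050 were named through RefSeq or Ensembl accessions, and the brightest probe stands for a gene.

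Diet groups were compared with limma 3.58.1 in R 4.3.3, within a tissue, over all probes, with Benjamini-Hochberg adjustment; calls needed a fold change over 1.5 and FDR under 0.05, as in the study's methods. Liver and colon were compared with slide as a random block (consensus correlation 0.233) and no term for the mouse. Relations across mice are Pearson's r and Spearman's rho with two-sided p from 100000 permutations within groups, adjusted over 40 relations. Where nothing says that mice came from separate litters, p-values measure the spread between these mice. The scripts were tested on simulated data. The members and lists were chosen with earlier results of these data known. The genes named by likeness are the 8 highest and 8 lowest r with Arntl in each tissue. Of 14 fasting and feeding genes, Pck1 was not found among the named probes. The sources differ on the reference RNA, which the methods call a pool of the study's own intestine and liver RNA and the labels a multi-organ reference. Alternatives covered background, normalization, channel, deposited table, slide, array weights, samples in the fit and single mice. Some genes that the naming rule or a list holds are not reported here.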

Additional observations from a re-analysis of the deposited data

Results flagged for a closer look

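Among 72 combinations of a member probe, a tissue and a diet, 2 held a mouse that stood far from the rest of its group, where chance gives about 1 in 20. Clock by its brightest probe was -0.26 in colon HL replicate 4, and the other HL mice lay between -0.02 and 0.11; the same mouse had the lowest Arntl of the colon HL group, -1.33. The second Cry1 probe was 0.30 in colon HL replicate 3, and the other HL mice lay between -0.70 and -0.38; by the brightest Cry1 probe that mouse, at -0.15, was also the highest of its group.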

How the results depend on the processing

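Calls across all probes depended on the fit in the liver. The sum of called probes over the 6 liver comparisons was 0 in the fit reported, 6 with both arrays of the HH mouse counted as mice, 18 with only the groups compared, 106 with all 8 groups, 3 with array weights, and 0 to 2 without single mice. In the colon it was 0 in every fit run. Member probes called in the liver against the colon numbered 3 without the repair of the local background, 5 with median centring, 6 with the scanner's processed signals and 4 in the other settings run. Cy3 alone was not run for this, as it was normalized within a tissue. With median centring 5 of the 10 liver pairs of members passed. With slide as a replicate block 0 probes were called in either tissue, 9 liver and 10 colon pairs passed, liver Arntl was -0.42 in LH, and of the relations to Arntl liver Per3 no longer passed (r = -0.31) and colon Bhlhe41 did (r = -0.49). Replicate numbers follow the slides and pair nothing else.

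Apart from Npas2 in liver minus colon, signs turned in values that passed no test. With median centring Clock in colon HL was 0.0049, Npas2 in liver minus colon 0.088, and liver Hlf with Arntl r = 0.016. Liver Bhlhe41 with Arntl was 0.035 with Cy3 alone, 0.026 without mice with high Xist and 0.11 after centring on slide, where liver Hlf was 0.18 and liver Nr1d1 0.098. Without the 2 mice farthest from the median of Arntl, liver Hlf was at 0.27, liver Nr1d1 at 0.039 and liver Bhlhe41 at 0.062. Without mice with high Xist, Nfil3 and Cry1 in colon LL were 0.24 and 0.021. Clock in colon LH ran from -0.092 to 0.016 and Npas2 in colon LL from -0.088 to 0.015 when single mice were left out. Among the untested liver differences, Npas2 turned in LH and HL with slide as a block (0.088 and 0.082), Npas2 in LL took either sign across settings, and Cry1 in LL was -0.10 without LL replicate 6; with the mean of all probes Cry1 in HL was 0.068. The cause of these changes was not tested. Npas2, Per3, Bhlhe41 and the third Clock probe are limited in the liver by signal near background.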
